A study of Mus musculus with 6 samples.

Results

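Oxidative phosphorylation genes were described in cultured cancer-associated fibroblasts (CAFs) from Thbs2KO and wild-type (WT) mice. The members were all genes of the deposited count table whose symbol starts with Nduf, Uqc, Atp5, Cox followed by a digit, mt-Nd, mt-Co, mt-Atp or mt-Cytb, or is Sdha, Sdhb, Sdhc or Sdhd, with no -ps names and a mean of at least 1 CPM (read counts scaled to library size). Of 124 matching symbols, 112 reached that level, among 55401 genes in the table and 13590 genes tested. They comprised 13 mitochondrially encoded and 99 nuclear encoded genes. The nuclear members were 76 subunits (36 of complex I, 4 of complex II, 8 of complex III, 11 of complex IV and 17 of complex V), 20 assembly factors and 3 other genes (Cox7a2l, Ndufa4l2 and Ndufb4c).

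The respiratory chain passes electrons from NADH and succinate through complexes I to IV to oxygen and pumps protons across the inner mitochondrial membrane, and complex V (ATP synthase) uses the proton gradient to make ATP. Complexes I, III, IV and V are assembled from subunits of both genomes, while complex II is wholly nuclear encoded. Mitochondrial DNA is transcribed as long polycistronic RNAs that are cut into single mRNAs, and stretches of mitochondrial DNA are also found as copies in the nuclear genome.

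The study compared CAFs, the fibroblasts of a tumour, isolated from tumours that grew in the rectum of mice after injection of mouse tumour organoids. Hosts were WT or Thbs2KO; Thbs2 encodes thrombospondin-2, a secreted matricellular glycoprotein. All cells were grown on fibronectin in medium with serum before RNA extraction, and 3 libraries were made per genotype. The labels used here give neither the host strain, age and sex nor the organoids' genotype nor the nature of the Thbs2 allele.

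Total expected counts ran from 19649066 to 24417464 per library. Thbs2 averaged 3399 ± 957 CPM in WT and 458 ± 69.5 CPM in Thbs2KO (SD, n = 3 each), with no overlap. Whether replicates are separate mice or cultures is not in the labels, so the spread behind every p-value may be technical. On the second principal component of all tested genes (29.7% of the variance), WT replicate 1 (34.6) and Thbs2KO replicate 3 (7.82) stood apart from the other libraries of their groups (-5.38 and 0.865 in WT, -19.0 and -18.9 in Thbs2KO). The 10 fibroblast markers summed to 30116 to 41085 CPM per library. Among them Pdgfra was higher in Thbs2KO without overlap, from 565 ± 181 to 1162 ± 317 CPM (adjusted p = 0.172 by edgeR and 0.00507 by DESeq2). Col1a1 was lower without overlap, from 13577 ± 1325 to 11672 ± 362 CPM (edgeR adjusted p = 0.488). For the other fibroblast markers the groups overlapped, with Dcn (1004 CPM) and Lum (51.3 CPM) highest in Thbs2KO replicate 3. Some markers of other cell types also moved with genotype. The 10 epithelial or organoid markers summed to 24.6 to 34.0 CPM in WT and 12.5 to 17.99 CPM in Thbs2KO. Krt19 and Lgr5 had the highest means of these, 8.97 and 6.55 CPM. Krt19 was lower without overlap, from 12.7 ± 2.53 to 5.18 ± 1.42 CPM (edgeR adjusted p = 0.0790). So were Krt20 (edgeR adjusted p = 0.0803) and, at means of 0.273 and 0.169 CPM, Muc2 and Vil1. For Lgr5, Krt8, Krt18, Epcam, Cdh1 and Cdx2 the groups overlapped. The 9 striated muscle markers summed to 50.5 to 191 CPM and 22.1 to 32.0 CPM, nearly all of it Acta1, with Ckm and Myod1 at 0. The 10 pericyte and smooth muscle markers summed to 410.1, 1407 and 1043 CPM in WT and 419.7, 557 and 430.1 CPM in Thbs2KO, with overlap. Immune markers summed to 2.10 to 14.4 CPM, with Cd3e and Cd3d at 0. The 6 endothelial markers summed to 11.8, 32.0 and 17.3 CPM in WT and 50.5, 33.2 and 32.2 CPM in Thbs2KO. These groups did not overlap, but WT replicate 2 and Thbs2KO replicate 3 were nearly level. Nearly all of that sum was Kdr and Tek, and for each of them the groups overlapped (edgeR adjusted p = 0.544 and 0.995). Pecam1 and Cdh5 were at or below 0.54 CPM in every library. The part of these cells in the results below was not tested. In bulk RNA, fewer cells of a type and less RNA per cell cannot be told apart.

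The data show no member called by edgeR's quasi-likelihood test at a Benjamini-Hochberg adjusted p of 0.05, against 1.09% of all tested genes. At an unadjusted p under 0.05, 0 members were higher in Thbs2KO (5.72% of all tested genes) and 8 were lower (7.56%). DESeq2 called 1 member, mt-Co2 (5.14% of all tested genes). Without WT replicate 1 and Thbs2KO replicate 3, edgeR called 2 members lower, Cox7a2l and mt-Co1, with 11.2% of all genes called. The groups did not overlap for 5 members that were higher (9.37% of all tested genes) and 15 that were lower (10.3%). The median log2 fold change, Thbs2KO over WT, was -0.02 over the 112 members, -0.18 over the 13 mitochondrial mRNAs (-0.11 with the nuclear copies described below summed), -0.01 over the 76 nuclear subunits and -0.02 over the 20 assembly factors, beside -0.00377 over all tested genes. Of the 112, 66 were below 0, against 50.9% of all tested genes. For all 76 nuclear subunits the 95% interval of the fold change lay within 1.5-fold in either direction, with outermost bounds of -0.50 and 0.44 on the log2 scale. The intervals of 6 of the 13 mitochondrial mRNAs, counted alone, lay within the same limit. With the copies summed, those of mt-Nd3, mt-Nd4l, mt-Co2, mt-Co3 and mt-Atp6 lay within it too. The intervals of mt-Nd6 (from -1.36) and mt-Cytb (from -0.586) still passed it.

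**Figure D1:**
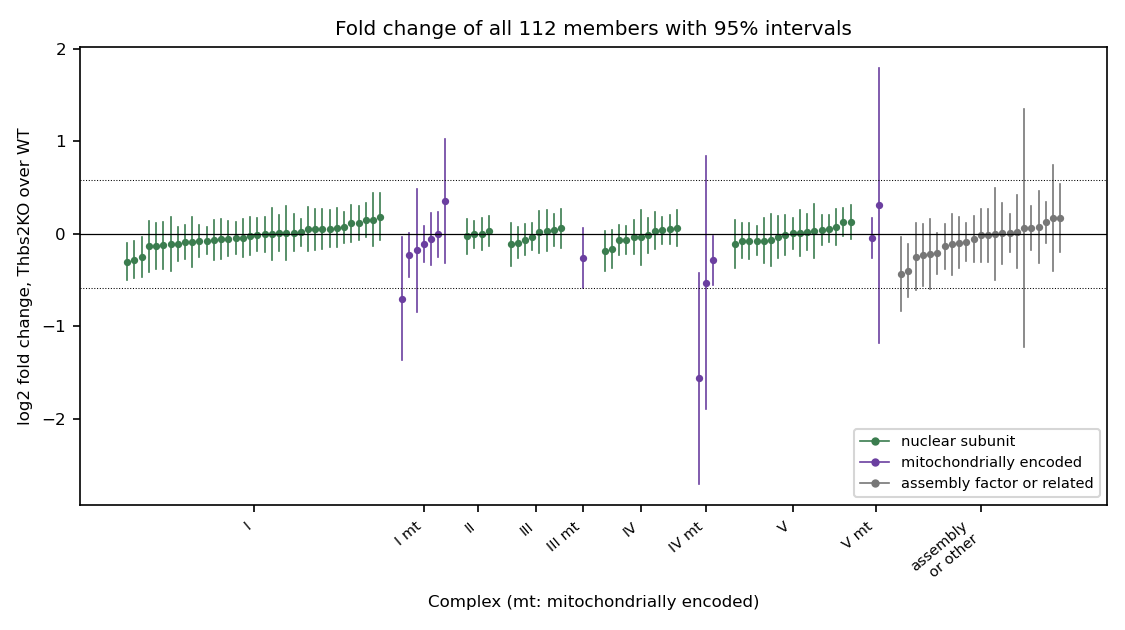
Each point is the log2 fold change of 1 member, Thbs2KO over WT (3 libraries each), with its 95% interval; members are grouped by complex and genome along the horizontal axis, and dotted lines mark 1.5-fold. All 76 nuclear subunits keep their intervals between the dotted lines, and the widest intervals belong to mitochondrially encoded genes and to Ndufa4l2. Genes are counted alone, and with copies summed the intervals of mt-Nd3, mt-Nd4l, mt-Co2, mt-Co3 and mt-Atp6 fall within 1.5-fold.

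Most reads of 5 mitochondrial mRNAs were listed under copies of their sequences in the nuclear genome, on chromosome 1 (minus strand, mm10). The copies of mt-Co2, mt-Atp6, mt-Co3 and mt-Nd4l had no difference from the mRNA over 681, 678, 783 and 294 aligned bases. They are Gm28661 (chr1:24614885-24615565), Gm10925 (chr1:24613974-24614651), Gm28437 (chr1:24613189-24613971) and Gm10222 (chr1:24612407-24612700). The copy of mt-Nd3, Gm28438 (chr1:24612775-24613119), differed at 1 of 345 bases, T3C, counted from the first base of the mRNA. The first 40 bases of both are shown with that base in capitals, since it is the only difference in the aligned bases (GENCODE M21 transcripts, GRCm38, 5′ to 3′).
mt-Nd3: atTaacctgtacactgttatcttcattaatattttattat
Gm28438: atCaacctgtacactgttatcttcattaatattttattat
The nuclear copy held 99.3% of the summed reads for mt-Co2, 97.8% for mt-Atp6, 94.9% for mt-Co3, 90.8% for mt-Nd3 and 62.0% for mt-Nd4l. A shorter copy of the end of mt-Co1, Gm29216, held 5.11%. The copy of mt-Nd4, Gm28439 (chr1:24611535-24612410), had no difference over 876 aligned bases and held 0.0143%. Reads from the mitochondrial mRNA and from its nuclear copy cannot be told apart where the sequences are identical, so each of these genes is given alone and summed with its copies. With copies summed for all members, edgeR again called 0 of them (1.08% of all tested genes), and at an unadjusted p under 0.05 it gave 1 higher (5.72%) and 6 lower (7.55%).

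**Figure D2:**
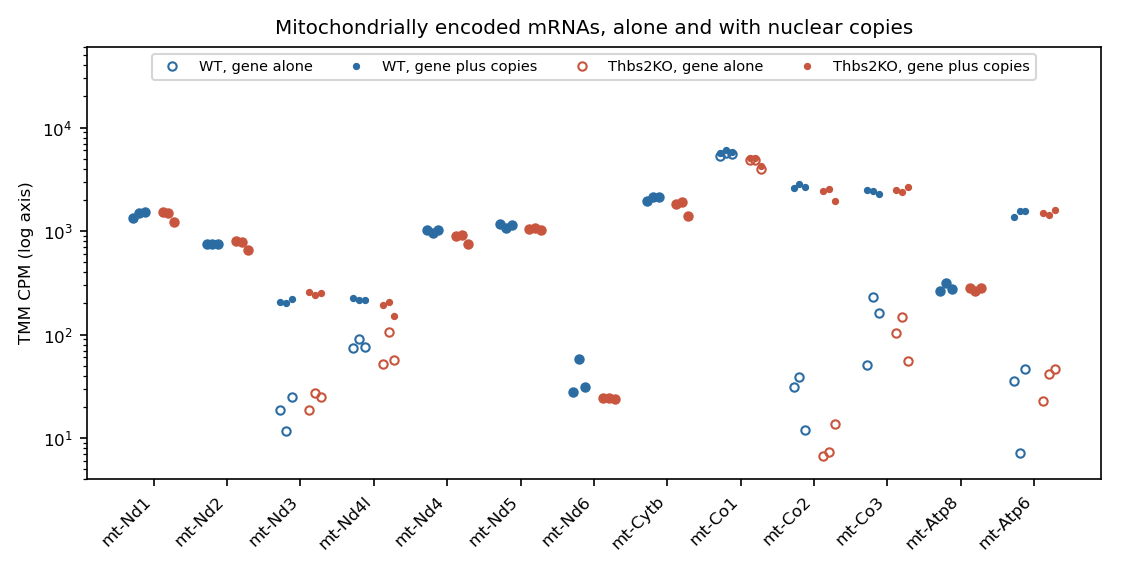
TMM-scaled CPM (log axis) of the 13 mitochondrial mRNAs in the 3 WT and 3 Thbs2KO libraries; open circles are the gene alone and filled points the gene plus its nuclear copies. For mt-Nd3, mt-Nd4l, mt-Co2, mt-Co3 and mt-Atp6 the filled points lie far above the open ones, while for the other mRNAs they nearly coincide.

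In complex IV, the cytochrome c oxidase that reduces oxygen, the 3 core subunits are mitochondrially encoded. mt-Co1, the catalytic subunit, was at 5347, 5728 and 5579 CPM in WT and 4835, 4829.5 and 4007 CPM in Thbs2KO. All Thbs2KO libraries were below all WT libraries, with replicate 3 lowest. Its log2 fold change was -0.28 (SE 0.110, edgeR with Benjamini-Hochberg adjusted p = 0.336). Summed with its copies, mt-Co1 was at 5684, 6059 and 5832 CPM in WT and 5049, 5102 and 4236 CPM in Thbs2KO. The groups again did not overlap, and the summed log2 fold change was -0.29 (SE 0.109, edgeR adjusted p = 0.323).

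mt-Co2, which holds the copper site that takes electrons from cytochrome c, was listed alone at 31.4, 38.7 and 11.99 CPM in WT and 6.71, 7.39 and 13.7 CPM in Thbs2KO. WT replicate 3 lay below Thbs2KO replicate 3, so the groups overlapped. The log2 fold change was -1.56 (SE 0.475), with an adjusted p of 0.220 by edgeR and 0.0126 by DESeq2 (both Benjamini-Hochberg). With its copies, mt-Co2 summed to 2591, 2841 and 2669 CPM in WT and 2455, 2533 and 1943 CPM in Thbs2KO. The groups did not overlap on that count, the log2 fold change was -0.22 (SE 0.124, edgeR adjusted p = 0.518) and DESeq2 gave an adjusted p of 0.548. The DESeq2 call of mt-Co2 held for the gene alone and not for the sum.

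mt-Co3, the third core subunit, moved the other way once its copy was counted. Alone it was at 50.2, 231 and 161 CPM in WT and 104, 146 and 55.6 CPM in Thbs2KO (log2 fold change -0.53, SE 0.570). Summed, it was at 2471, 2463 and 2277 CPM in WT and 2503, 2409 and 2638 CPM in Thbs2KO. The groups overlapped on both counts, and the summed log2 fold change was 0.07 (SE 0.0871, edgeR adjusted p = 0.835).

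In complex III, mt-Cytb is the mitochondrially encoded cytochrome b that oxidises ubiquinol. It was at 1936, 2134 and 2127 CPM in WT and 1832, 1929 and 1406 CPM in Thbs2KO. The groups did not overlap, with WT replicate 1 and Thbs2KO replicate 2 nearly level, and the log2 fold change was -0.26 (SE 0.136, edgeR adjusted p = 0.484).

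Complex I, which takes electrons from NADH, has 7 mitochondrially encoded core subunits that form its proton-pumping membrane arm. mt-Nd1 was at 1349.8, 1495 and 1538 CPM in WT and 1528, 1483 and 1213 CPM in Thbs2KO. mt-Nd2 was at 757, 746 and 752 CPM and 809, 789 and 649.5 CPM, and mt-Nd5 at 1180.2, 1061 and 1155 CPM and 1056, 1062 and 1028 CPM. The groups overlapped for these 3 mRNAs.
mt-Nd4 was at 1020.4, 957 and 1026 CPM in WT and 890.1, 916 and 756 CPM in Thbs2KO, without overlap (log2 fold change -0.23, SE 0.0988, edgeR adjusted p = 0.39). mt-Nd4l, whose last 7 bases overlap mt-Nd4, was alone at 74.2, 91.3 and 76.3 CPM in WT and 51.7, 106.1 and 56.2 CPM in Thbs2KO, with overlap (log2 fold change -0.18, SE 0.278). With its copy it averaged 217 ± 5.83 CPM in WT and 183 ± 27.8 CPM in Thbs2KO (SD, n = 3 each). The 2 groups did not overlap on the summed count, and the log2 fold change was -0.25 (SE 0.119, edgeR adjusted p = 0.440).

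mt-Nd3 was the 1 mitochondrial mRNA that was higher in every Thbs2KO library than in every WT library once copies were summed: 207, 200.0 and 222 CPM in WT and 255, 243 and 252 CPM in Thbs2KO. Alone it was at 18.8, 11.7 and 24.9 CPM and 18.7, 27.4 and 24.8 CPM, with overlap. The summed log2 fold change was 0.26 (SE 0.0712), with an adjusted p of 0.180 by edgeR and 0.0358 by DESeq2. Summing copies was planned for edgeR, and its use with DESeq2 was chosen after seeing the data.

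mt-Nd6, the only 1 of the 13 mRNAs read from the other mitochondrial strand, was at 27.7, 58.4 and 31.3 CPM in WT and 24.3, 24.2 and 23.8 CPM in Thbs2KO. Its log2 fold change of -0.70 (SE 0.278, edgeR adjusted p = 0.349) rested on WT replicate 2: without that library it was -0.28 (edgeR adjusted p = 0.430). The library kit does not mark strand, so mt-Nd6 reads and reads from the opposite strand of the same stretch cannot be told apart.

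In complex V, mt-Atp6 (the proton channel subunit) and mt-Atp8 are read from 1 bicistronic mRNA and their genes overlap by 43 bases (chrM:7927-7969, plus strand). The end of mt-Atp8 is shown with the overlap in capitals, since reads there belong to both (GENCODE M21, GRCm38).
mt-Atp8 end: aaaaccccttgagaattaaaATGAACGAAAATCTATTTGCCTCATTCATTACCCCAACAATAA
mt-Atp8 was at 261, 315 and 275 CPM in WT and 281, 263 and 280.0 CPM in Thbs2KO. mt-Atp6 alone was at 35.5, 7.19 and 46.6 CPM in WT and 22.8, 41.2 and 46.8 CPM in Thbs2KO (log2 fold change 0.31, SE 0.620). With its copies it averaged 1489 ± 100.4 CPM in WT and 1511 ± 82.6 CPM in Thbs2KO (SD, n = 3 each). The groups overlapped for mt-Atp8 and for mt-Atp6 on both counts, and the log2 fold changes were -0.05 for mt-Atp8 and 0.02 for mt-Atp6 summed.

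Summed with their copies, the 13 mitochondrial mRNAs reached 19084, 20095 and 19662 CPM in WT and 18384, 18387 and 16170.5 CPM in Thbs2KO. The groups did not overlap on this scale, and the ratio of the means was -0.15 on the log2 scale, or -0.09 with total-count scaling, where the groups did overlap (an alternative chosen after seeing the data). As a share of all counts, the same sum made up 1.85%, 1.99% and 1.92% in WT and 1.92%, 1.91% and 1.59% in Thbs2KO. Thbs2KO replicate 3 was lowest and the other Thbs2KO libraries lay within the WT range, so the separation depended on the scaling between libraries. Setting aside Thbs2KO replicate 3 and WT replicate 1 cannot undo the separation on the TMM scale, since the full groups did not overlap. By complex, the sum with copies on the TMM scale was lower without overlap for complex III (mt-Cytb) and complex IV (10963 ± 348 CPM in WT and 9623 ± 698 CPM in Thbs2KO). It overlapped for complex I (4812 ± 111 and 4517 ± 385 CPM) and complex V (1773 ± 122 and 1785 ± 91.2 CPM; SD, n = 3 for each). With total-count scaling the groups overlapped for complexes III and IV as well. Complex III was then at 1875, 2112 and 2079 CPM in WT and 1909, 2006 and 1378 CPM in Thbs2KO. Complex IV was at 10407, 11247 and 10532 CPM in WT and 10431, 10446 and 8645 CPM in Thbs2KO. A sum over members has no test here.

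**Figure D3:**
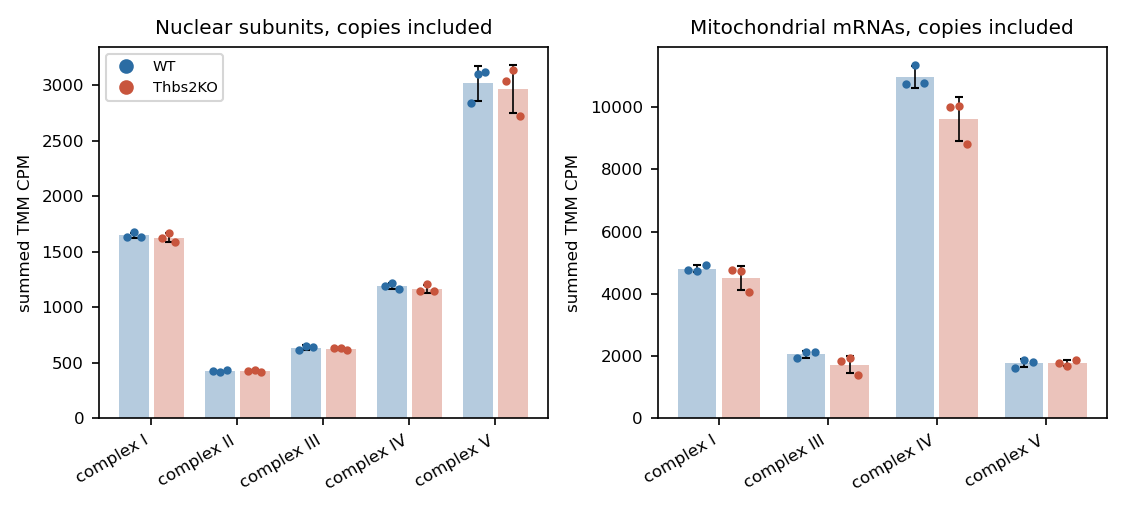
Summed TMM-scaled CPM per complex, copies included, for nuclear subunits (left) and mitochondrial mRNAs (right); bars are means of 3 libraries, whiskers SD and points single libraries. Nuclear sums overlap between WT and Thbs2KO for all 5 complexes, and the mitochondrial sums of complexes III and IV do not on this scale. With total-count scaling the mitochondrial sums of complexes III and IV overlap too.

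The nuclear subunits showed no such separation on the TMM scale. Their summed level was 6687, 7054 and 6983 CPM in WT and 6864, 7073 and 6479 CPM in Thbs2KO, a log2 ratio of -0.02 that turned to 0.04 with total-count scaling. The groups overlapped for the nuclear sum of every complex. Log2 ratios ran from -0.03 for complex IV to 0.01 for complex II.

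Per kilobase of exons, as the mean of the 6 libraries, nuclear subunits had median levels of 25.1 CPM per kb in complex I, 38.1 in complex II, 59.4 in complex III, 70.4 in complex IV and 53.4 in complex V. Assembly factors, which help build the complexes but do not stay in them, had a median of 5.11 CPM per kb. Each class spread widely: complex I subunits ran from 3.42 (Ndufb2) to 67.0 (Ndufa8) CPM per kb. On this length the highest nuclear levels per kb were those of Atp5b, the catalytic beta subunit of ATP synthase (241), and of Cox8a, a small structural subunit of cytochrome c oxidase (217). These medians rest on merged exon lengths, and a gene whose transcripts are shorter than its merged exons is understated. Per kb of the longest transcript, Cox4i1 (293 CPM per kb) came before Cox8a (244).

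**Figure D4:**
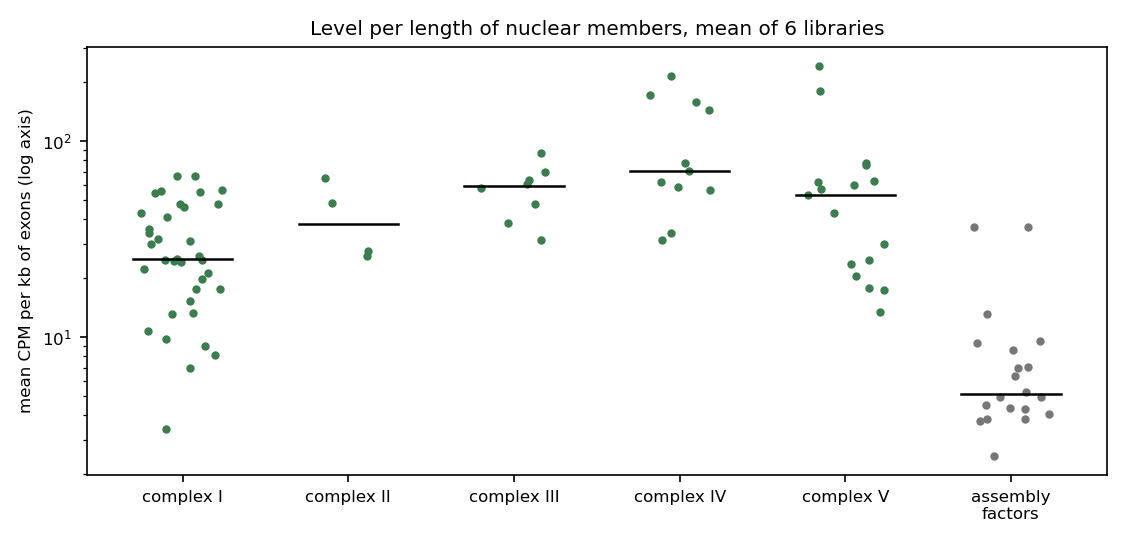
Mean CPM per kb of exons over 6 libraries (log axis) for each nuclear subunit by complex and for the assembly factors; bars mark medians. Assembly factors have the lowest median, 5.11, and complex IV subunits the highest, 70.4.

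Among the nuclear subunits of complex I, 15 of 36 had a positive and 21 a negative fold change, with a median of -0.02. The smallest p belonged to Ndufb10, a supernumerary subunit of the membrane arm, at 59.6, 60.1 and 54.7 CPM in WT and 46.5, 51.1 and 44.1 CPM in Thbs2KO. The groups did not overlap, and the log2 fold change was -0.30 (SE 0.0841, edgeR adjusted p = 0.185). Ndufa3, another supernumerary subunit, was at 37.1, 35.3 and 32.5 CPM in WT and 28.1, 28.1 and 30.1 CPM in Thbs2KO. It was lower in every Thbs2KO library, with a log2 fold change of -0.28 (SE 0.0837, edgeR adjusted p = 0.209).
Ndufs7, the core subunit with the last iron-sulfur cluster before ubiquinone, was named after its values were seen, as the third complex I subunit with an unadjusted p under 0.05. It was at 26.1, 29.2 and 30.5 CPM in WT and 24.6, 24.2 and 23.4 CPM in Thbs2KO (log2 fold change -0.25, edgeR adjusted p = 0.301). The 7 nuclear core subunits, which carry electrons, had a median of 0.02, and the 29 supernumerary subunits one of -0.02.

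The 4 subunits of complex II, succinate dehydrogenase, had log2 fold changes between -0.03 and 0.03. Sdha, the flavoprotein that oxidises succinate, averaged 199 ± 8.20 CPM in WT and 203 ± 2.97 CPM in Thbs2KO (SD, n = 3 each). Its log2 fold change was 0.03, with a 95% interval from -0.13 to 0.19. Sdhb, the iron-sulfur subunit, averaged 62.0 ± 3.09 and 60.9 ± 3.75 CPM. The membrane anchors Sdhc and Sdhd differed by less than 0.01 on the log2 scale, and the groups overlapped for all 4.

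None of the 8 nuclear subunits of complex III that match the symbol rule had groups apart. Cyc1, a further subunit, does not match the rule and was read with the carriers and dehydrogenases below. The core subunit Uqcrc1 averaged 135 ± 4.68 CPM in WT and 126 ± 6.30 CPM in Thbs2KO (SD, n = 3 each), and its log2 fold change was -0.09. The Rieske iron-sulfur protein Uqcrfs1 averaged 68.3 ± 6.52 and 63.1 ± 4.81 CPM. Uqcr10 was at 87.6 CPM per kb of merged exons, the highest of these 8 on that length, and had a log2 fold change of 0.04. Per kb of the longest transcript Uqcrh was higher, at 108.1 against 100.4 CPM per kb for Uqcr10.

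Among the 11 nuclear subunits of complex IV, Cox5a and Cox5b, which form part of the enzyme's shell, stood lowest. Cox5a was at 71.5, 79.3 and 77.0 CPM in WT and 67.3, 72.6 and 60.2 CPM in Thbs2KO. Its groups overlapped at 1 library, and the log2 fold change was -0.19 (SE 0.0903, edgeR adjusted p = 0.450). Cox5b and Cox6a1 were lower without overlap, with log2 fold changes of -0.17 and -0.06. Of the paired isoforms of this complex, the broadly expressed forms made up nearly all counts. Cox4i1 averaged 144 CPM per kb and Cox4i2, the isoform best known from lung, 0.167. Cox6a1 was at 172 and the muscle form Cox6a2 at 1.16 CPM per kb. Cox6b1 was at 159 and the testis form Cox6b2 at 0.711 CPM per kb, and Cox7a2 at 56.6 and the muscle form Cox7a1 at 0.742. Cox7b2 and Cox8b had no count in any library, while Cox7b averaged 62.0 and Cox8a 217 CPM per kb. Ndufa4, once assigned to complex I and now to complex IV, was at 70.4 CPM per kb. Its relative Ndufa4l2, a gene induced by hypoxia, varied widely within each group: 26.2, 5.56 and 10.9 CPM in WT and 13, 11.5 and 19.9 CPM in Thbs2KO. WT replicate 1 and Thbs2KO replicate 3 were highest in their groups, and the log2 fold change of 0.06 (SE 0.538) had a 95% interval from -1.23 to 1.35.

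Complex V held the nuclear members with the highest counts. Atp5b was at 936, 1092 and 1111 CPM in WT and 1059, 1070.4 and 869 CPM in Thbs2KO, with overlap and a log2 fold change of -0.07. Atp5a1, the alpha subunit, averaged 560.1 ± 26.4 CPM and 568 ± 29.5 CPM (SD, n = 3 each). Atp5j2 and Atp5mpl, small subunits of the membrane part, were higher in every Thbs2KO library, each with a log2 fold change of 0.13 (edgeR adjusted p = 0.457 and 0.557). The 3 genes for the identical c subunit of the rotor, Atp5g3, Atp5g2 and Atp5g1, averaged 137, 95.4 and 66.5 CPM. Per kb of merged exons they were at 63.0, 57.0 and 13.5 CPM. The merged exons of Atp5g1 are the longest, at 4912 bases against 2181 for Atp5g3 and 1675 for Atp5g2. Log2 fold changes of the 3 genes ran from -0.07 to 0.04.

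The 20 assembly factors divided into 9 positive and 11 negative fold changes. Ndufaf2, a chaperone of complex I assembly, was at 13.1, 17.8 and 15.7 CPM in WT and 12.4, 12.5 and 9.48 CPM in Thbs2KO. The groups did not overlap, and the log2 fold change was -0.44 (SE 0.167, edgeR adjusted p = 0.331). Ndufaf7, a methyltransferase needed for complex I assembly, averaged 16.4 ± 0.925 CPM in WT and 14.1 ± 0.362 CPM in Thbs2KO (SD, n = 3 each), and the log2 fold change was -0.21 (edgeR adjusted p = 0.406). For 16 of the 20 factors the 95% interval lay within 1.5-fold, and for all 20 within 2-fold.

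Cox7a2l (SCAF1) joins complexes III and IV into supercomplexes. It lies at chr17:83501918-83517330 on the minus strand (mm10) and was at 147, 133 and 125 CPM in WT and 93.2, 95.2 and 119 CPM in Thbs2KO. Every Thbs2KO library was below every WT library, and the log2 fold change was -0.40 (SE 0.118, edgeR adjusted p = 0.210). Its processed copy Gm6969 (chr12:24638669-24639010, minus strand) went the other way, from 0.0430, 0.131 and 0.168 CPM in WT to 15.8, 13.8 and 19.4 CPM in Thbs2KO. That is 8 counts over the 3 WT libraries and 1014 over the 3 Thbs2KO libraries, a log2 fold change of 7.09 (SE 0.334, edgeR adjusted p = 0.000286).
The copy is 6 bases longer than the Cox7a2l coding sequence at 1 point, shown here because reads across it can be placed (GENCODE M21 transcripts, GRCm38, 5′ to 3′). Capitals mark the block that differs, between identical flanks of 35 bases.
Cox7a2l: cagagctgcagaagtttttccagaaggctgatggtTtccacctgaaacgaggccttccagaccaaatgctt
Gm6969: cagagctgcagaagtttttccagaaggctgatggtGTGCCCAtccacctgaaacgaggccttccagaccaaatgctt
Over the 342 bases of the copy there was 1 further difference, C358T, counted from the first base of the Cox7a2l transcript. Summed, the gene and its copies were at 147, 133 and 125 CPM in WT and 109, 109 and 138 CPM in Thbs2KO. The groups then overlapped and the log2 fold change was -0.18 (SE 0.119, edgeR adjusted p = 0.604). Mouse strains are known to carry a long and a short coding form of Cox7a2l, and C57BL/6J, the strain of the reference genome, has the short one. The labels do not say which form the hosts carried, and this was not tested.

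**Figure D5:**
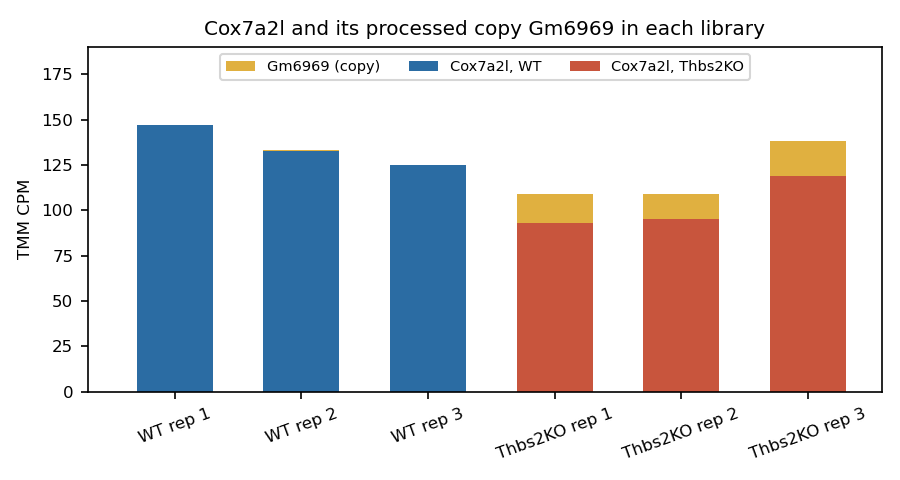
TMM-scaled CPM of Cox7a2l (blue in WT, red in Thbs2KO) with its copy Gm6969 stacked on top (yellow) in each of the 6 libraries. The copy stands out in the 3 Thbs2KO libraries, at 13.8 to 19.4 CPM, and Thbs2KO replicate 3 with its copy reaches the WT range.

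At least 1 pseudogene copy was found for 39 of the 99 nuclear members, and of their 104 copies 4 averaged at least 1 CPM: Gm6969, Gm10175 of Atp5g2, Gm4459 of Ndufab1 and Ndufa12-ps of Ndufa12. They are named after their values were seen. Gm6969 held 6.49% of the reads of Cox7a2l and its copies, and Gm10175 held 7.11% of those of Atp5g2 and its copies. Ndufa12-ps was at 0.861, 0.570 and 0.922 CPM in WT and 2.46, 2.54 and 2.15 CPM in Thbs2KO (log2 fold change 1.60, edgeR adjusted p = 0.0570, DESeq2 adjusted p = 0.000980). Ndufa12 itself, a supernumerary subunit of complex I, had a log2 fold change of 0.19 alone and 0.24 with the copy. Cox7a2l was the only nuclear member whose log2 fold change moved by more than 0.1 when copies were summed. Ndufb4c, a member by its symbol, is annotated as a processed pseudogene and had a log2 fold change of -0.06.

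The promoters of the nuclear members were searched for motifs of factors known to act on respiratory genes, as a description of sequence. RefSeq promoters (GRCm38.p6, 250 bases before to 50 after the start) were matched for 82 of 99 members, and both strands were read. The NRF1 motif (GCGCA and GCGC with 1 base between them) was present in 20 members (24.4%), against 11.5% of 10199 tested genes and 5.19% of all 27025 promoters. The ETS motif CCGGAAG, bound by GABP, was present in 24 members (29.3%), against 20.1% and 9.93%, and the YY1 motif AAGATGGC in 14 (17.1%), against 5.26% and 3.19%. At least 1 of the 3 was present in 48 members, and none held all 3. These are 3 stretches upstream of the start in which NRF1 motifs, in capitals, were found, given on the gene's strand: Atp5g2 (chr15:102671048-102671134, minus), Cox6a1 (chr5:115349066-115349165, minus) and Ndufa11 (chr17:56717657-56717756, plus).
Atp5g2: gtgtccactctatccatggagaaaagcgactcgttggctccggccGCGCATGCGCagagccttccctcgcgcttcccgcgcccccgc
Cox6a1: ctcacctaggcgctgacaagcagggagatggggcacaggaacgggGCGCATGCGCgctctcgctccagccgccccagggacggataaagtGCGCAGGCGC
Ndufa11: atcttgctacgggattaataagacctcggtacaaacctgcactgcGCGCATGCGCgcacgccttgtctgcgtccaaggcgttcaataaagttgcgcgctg
The first motif starts 42 bases before the start of Atp5g2, 162 before that of Cox6a1 and 60 before that of Ndufa11. Their log2 fold changes were 0.04, -0.06 and 0.12, and none was called. The motif is a match of letters only.

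Genes that work with the respiratory chain were read from 7 lists. Of 78 mitochondrial ribosomal proteins, which translate the 13 mitochondrial mRNAs, 2 were called lower (0.537% of all tested genes) and 0 higher (0.552%) by edgeR, with a list median of -0.02. Mrpl33, of the large subunit, fell from 41.3 ± 1.36 to 24.3 ± 1.35 CPM (SD, n = 3 each), with a log2 fold change of -0.76 (SE 0.0790, edgeR adjusted p = 0.0108). Mrps12, of the small subunit, fell from 20.7 ± 1.59 to 10.6 ± 1.22 CPM, a log2 fold change of -0.97 (SE 0.124, edgeR adjusted p = 0.0244). The libraries of the 2 groups did not overlap for either gene.

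No gene of the other 6 lists was called by edgeR, and DESeq2, which called 5.14% of all tested genes, called 1, Suclg2, a subunit of succinyl-CoA ligase (log2 fold change 0.36, DESeq2 adjusted p = 0.0129, edgeR adjusted p = 0.117). At an unadjusted p under 0.05, 5 genes of these lists were higher and 2 lower, beside 5.72% and 7.56% of all tested genes. Among 12 tested nuclear regulators, Gabpa, the GABP subunit that binds the ETS motif above, and Gabpb2, its partner subunit, had log2 fold changes of 0.20 and 0.30 (edgeR adjusted p = 0.263 and 0.183). Esrra, the estrogen-related receptor that drives respiratory genes, had one of -0.24 (edgeR adjusted p = 0.293). As the third regulator by p, it fell outside the rule for named genes. Among 25 genes of mitochondrial transcription and mRNA stability, the smallest p belonged to Polrmt, the mitochondrial RNA polymerase (-0.19), and Mterf3 (0.22). Tmem70, an assembly factor of ATP synthase, had a log2 fold change of -0.52 and Acad9, of complex I, one of 0.14 among 27 assembly factors outside the symbol rule. Etfdh, which passes electrons from fatty acid oxidation to ubiquinone, had one of 0.29 and Coq7, of ubiquinone synthesis, one of -0.24 among 20 carriers and dehydrogenases. Idh2, the second of the 26 citrate cycle genes by p, had one of 0.21. Ucp2, an uncoupling protein homologue, had one of 1.04, from 7.15 ± 3.05 to 14.7 ± 4.98 CPM (SD, n = 3 each; edgeR adjusted p = 0.331), and Slc25a25, an ATP-Mg carrier, one of -0.40.

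The level rule left out 12 symbols. Ndufaf6 was the lowest member, at 3.07 CPM, and Cox6a2 and Cox6b2 were just outside at 0.791 and 0.788 CPM. Cox7a1 followed at 0.397 and Cox4i2 at 0.132 CPM. The other 8 had no count in any library: Cox8b, Cox8c, Cox7b2, a second identifier of Atp5o, and the pseudogenes Cox6c2, Ndufa11b, Cox20b and Ndufs6b. Of the 14 -ps names left out, Ndufb1-ps was the most abundant, at 34.9 CPM, with a log2 fold change of -0.10.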

How the data were processed

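RNA-seq libraries of 3 WT and 3 Thbs2KO CAF samples were analysed. The authors deposited expected counts, which are RSEM's estimates of reads per gene with no scaling across libraries. The submitters' processing notes name Trimmomatic 0.39, STAR 2.7.3a, RSEM and mm10. Not given in the sources used here: the annotation release and RSEM version. Where a read fits more than 1 gene, RSEM splits it by estimate, so near-identical genes share uncertainty. Per the labels' protocols, the kit was TruSeq RNA v2, which does not mark strand. Column totals ran from 19649066 to 24417464.

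Expected counts were rounded. Genes passing filterByExpr (13590) were scaled with TMM and tested by quasi-likelihood in edgeR 4.0.16 with R 4.3.3, using robust estimation and genotype as the sole term. Adjusted p-values are Benjamini-Hochberg over all tested genes, and the threshold was 0.05. CPM values use TMM factors. Standard errors come from the F statistic, and 95% intervals from the fit's degrees of freedom. Alternatives used DESeq2 1.42.0 and limma-voom (limma 3.58.1), among others. Copies are annotated pseudogenes matched to members by BLAST+ 2.17.0 on the same strand, with a minimum of 90% identity, 50% of the copy covered and an E-value of 1e-20 or less. Positions come from GENCODE M21 (GRCm38, the build of mm10), joined by Ensembl identifier.

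Members and lists were chosen with earlier results of these data known. Named members were all mitochondrial mRNAs, members called by either tool, per complex the 2 nuclear members with the smallest p and the 2 with the highest CPM per kb, 3 assembly or related genes with the smallest p, and isoform groups; of each pathway list, called genes or else the 2 with the smallest p. Tested on simulated counts for Thbs2KO against WT over 13423 genes, edgeR recovered 17 of 50 true 1.5-fold changes, 38 of 50 2-fold changes and all 50 at both 4-fold and 8-fold. It also called 11 genes that had not been altered. The altered genes were drawn only from those above a minimum mean CPM. The simulated spread followed the trend with level, not each gene's own spread, so recovery can be lower for weakly expressed or more variable genes.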

Additional observations from a re-analysis of the deposited data

How the results depend on the processing

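Over all tested genes edgeR called 148. The count was 699 with DESeq2, 245 with no filter, 30 with the replicate block, 38 with Thbs2KO replicates 1 and 2 summed, and 1519 without WT replicate 1 and Thbs2KO replicate 3 together. Leaving out 1 library at a time gave 38 (without Thbs2KO replicate 1) to 397 genes (without WT replicate 1), with 79 and 49 without WT replicates 2 and 3 and 45 without Thbs2KO replicate 2. Deviations of same-numbered libraries from their group means correlated with r of -0.29, 0.17 and -0.33. With 3 libraries per group these values cannot decide whether the numbers pair the libraries. The replicate block called 0 members. Members called were 1 with DESeq2 (mt-Co2), 2 with both libraries left out (Cox7a2l and mt-Co1, where 11.2% of all genes were called), and 0 in every fit without 1 library. Of the 3 alternatives added after seeing the data, copies summed with both libraries left out called 3 members (Cox7a2l, Ndufa12 and mt-Co1) of 1532 genes, and DESeq2 with copies summed called 1 (mt-Nd3) of 695 genes. Total-count scaling moved the log2 ratio of nuclear sums to 0.0431 for complex I, 0.0726 for II, 0.0401 for III, 0.0323 for IV and 0.0410 for all; with both libraries left out that of mitochondrial complex V, genes alone, was -0.0824. Over 21 alternatives, 61 of 903 fold changes of the 43 named members changed sign, in 18 members, none of them called. The median over nuclear subunits ran from -0.03 to 0.05 and over mitochondrial mRNAs from -0.28 to -0.10. The intervals printed above give the range of fold changes compatible with the data at this depth and number of libraries. They are not limits of detection, and a member that was not called can still differ by any amount within its interval.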
